A study of Mus musculus with 7 samples.

Results

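Intergenic crosslink sites outside dense windows were examined in iCLIP libraries of DENR from NIH3T3 cells, an established mouse fibroblast line. The method crosslinks proteins to RNA with ultraviolet light, recovers the complexes with an antibody, and reads the crosslinked nucleotide from the point where the cDNA ends. The libraries were 3 from Denr overexpressing cells, transiently transfected with Denr in a FLAG-Venus-pLenti6 vector, 2 from non-transfected cells, and 2 IgG controls. The anti-DENR antibody served both DENR groups, so the overexpressing libraries hold endogenous as well as tagged DENR. Per the methods, 1 dish was used for overexpression and more for non-transfected cells, and whether the cells of the IgG controls were transfected was not stated in the sources used here. All cells were crosslinked with UV-C at the same dose, and complexes of one size range were excised from a membrane.

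The sites were chosen by position and by local density. A site belonged to the set if it lay in no gene of GENCODE M21 (build mm10) on either strand and in no tRNA gene of RefSeq. The mitochondrial chromosome, the partial pre-rRNA copy on chromosome 17 and dense windows were left out. Dense windows were fixed windows of 2000 nt with 10 or more sites outside rRNA in each of the 5 DENR libraries, and there were 66 of them genome-wide. The rule therefore used the number of sites per window in the DENR libraries, and a low local density is not a finding. Of 42120 sites in the 7 lists, 5463 met the rule and are called members here, at 3681 different positions and strands. Just inside the limit were 4 windows with an intergenic site, in which the library with the fewest sites held 8 or 9. Just outside it were 6, in which that library held 10 or 11.

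DENR works with MCTS1 in translation reinitiation, in which a ribosome that has finished an upstream open reading frame starts again downstream. RNA from intergenic sequence has several known sources: unannotated transcripts, transcription in the reverse direction from promoters, transcripts that run past the end of a gene, and copies of repeated sequence. Small nuclear RNAs (snRNAs) such as U1, U2, U5 and U6 are parts of the spliceosome, and mammalian genomes hold many gene copies and pseudogenes of them. In the usual iCLIP convention the listed position is the nucleotide just 5′ of the cDNA, so a position 1 nt upstream of a gene corresponds to a cDNA that begins with the first nucleotide of that gene.

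The most regular feature of the set was found at the 5′ ends of small RNA genes, and the sequences that follow the listed positions are shown here for 1 gene of each snRNA family concerned. Each is the first 30 bases of the gene in GENCODE M21 (mm10), 5′ to 3′ on the gene strand, and the capital marks the first base of the gene, which directly follows a listed position.
Gm22307, U6-like, chr1:4529017-4529046, plus strand: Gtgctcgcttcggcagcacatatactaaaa
Gm22513, U1-like, chr12:54696782-54696811, plus strand: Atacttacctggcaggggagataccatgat
Gm25099, U5-like, chr4:117189942-117189971, plus strand: Atactctggtttctcttcagatcgtataaa
Gm22973, U2-like, chr12:59040335-59040364, plus strand: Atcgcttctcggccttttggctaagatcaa
Rnu12, U12, chr15:83149644-83149673, plus strand: Atgccttaaacttatgagtaaggaaaataa
A gene was assigned to a family when its first 30 bases had at most 3 mismatches to a named member (Rnu6, Rnu1a1, Rnu5g, Rnu2-10 or Rnu12), and the 5 genes printed had none. The first 30 bases of Gm22307 were shared by 141 annotated genes, those of Gm22513 by 24, those of Gm22973 by 16 and those of Gm25099 by 6. Which copy a cDNA came from is therefore uncertain.

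Of the 3681 positions, 104 lay within 10 nt of a gene. Of these, 99 (95.2%) were upstream of the gene on its own strand, 4 were upstream on the opposite strand and 1 was downstream. The 4 on the opposite strand all belonged to the lincRNA gene Gm32389. Of the 99, 75 were next to 33 snRNA genes and 9 next to 4 snoRNA genes, namely Snord104, Snord118 (U8), Rnu3a (U3) and Gm26047. Another 6 were next to 5 protein-coding genes (Mgat5, Atg101, Hspa13, Pole3 and Yap1), each in 1 library only. The remainder were next to Rny3 (a Y RNA), n-R5s193 (a 5S rRNA gene), Gm26917, Gm25911 and Tpt1-ps3. Gm26917 is annotated as a lincRNA gene and begins at the first base of the excluded pre-rRNA copy. Counting back from the gene, 28 of the 99 were at 1 nt, 24 at 2 nt, 16 at 3 nt and 11 at 4 nt, and 1 was at 10 nt. Recurrence fell along the same line, since 24 of the 29 positions at 1 nt were listed in 2 or more DENR libraries, 12 of the 25 at 2 nt and 4 of the 16 at 3 nt.

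Among 758 snRNA genes with no other gene within 20 nt, the 5 DENR lists held 75 positions in the 10 nt upstream on the gene strand and none from 11 to 20 nt upstream. They held none in the 10 nt downstream and none on the opposite strand in either flank. The first 10 nt inside these genes, which are outside the set, held 23 positions. Many positions lay farther inside, with 14, 16 and 15 at 20, 22 and 24 nt past the first base. The upstream edge was thus not the only place where these genes were listed. By comparison, 11611 protein-coding genes with no other gene within 20 nt had 2 positions in the 10 nt upstream on the gene strand and 1 in the 10 nt downstream. Likewise, 600 snoRNA genes had 5 upstream and none downstream, and 630 miRNA genes had 14 upstream and 7 downstream, with another 20 from 11 to 20 nt upstream. All listed sites were counted here, including any in dense windows. These counts are descriptions, since the positions were found with the results known and many snRNA genes share sequence.

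**Figure D1:**
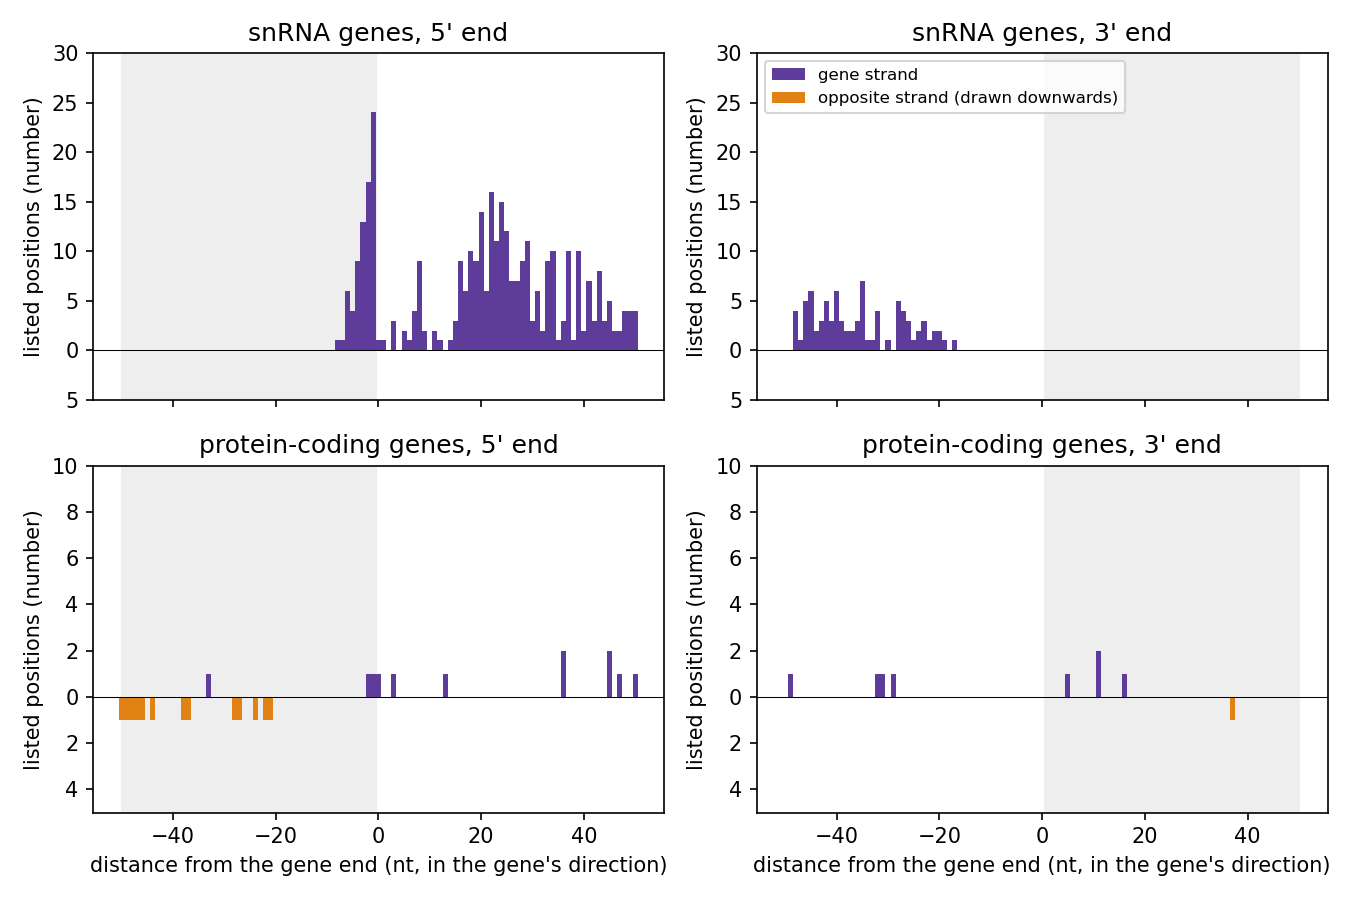
Number of listed positions in the 5 DENR libraries by distance (nt) from the 5′ and 3′ ends of 758 snRNA genes and 11611 protein-coding genes, with the gene strand upwards, the opposite strand downwards and the intergenic side shaded. The snRNA genes show 24 positions at 1 nt upstream and a decline within 10 nt, with no position on the intergenic side of the 3′ end.

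Most of the snRNA genes were U6-like. There were 23 U6-like genes with 53 positions, and 20 of the 23 had a position in 2 or more DENR libraries. All 23 were 107 nt long, the first 30 bases of 18 were identical to Rnu6, and the annotation holds 397 genes of this family. U1-like, U2-like and U5-like genes numbered 3 each, with 6, 6 and 7 positions, and Rnu12, whose RNA belongs to the minor spliceosome, had 3. These families are smaller, with 61 U1-like, 30 U2-like, 11 U5-like and 4 U12-like genes in the annotation. The U6-like majority is therefore a count of genes and not a higher share of the family.

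At 4 genes the position 1 nt upstream was listed in all 5 DENR libraries. At Gm22513 (U1-like) its score, the whole number that the caller gave to a position, was 10, 28 and 19 with overexpression (replicates 1 to 3), and 3 and 29 without transfection (replicates 1 and 2). At Gm25099 (U5-like) it was 3, 50 and 14, and 18 in non-transfected replicate 2 against 5 in replicate 1. At Gm22307 (U6-like) it was 3, 17 and 21, against 6 and 5. The groups overlapped at all 3 genes, and DENR overexpressing replicate 1, which had the fewest members, was lowest at Gm25099 and Gm22307. At Gm25794 (U6-like, chr10:79703484-79703590, minus strand) it was 2, 12 and 23, against 3 and 3. Neither IgG library listed a member within 10 nt of a gene.

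The libraries differed in how sharply the positions sat at the gene edge. In DENR overexpressing replicate 3, 25 of 33 positions within 10 nt were at 1 nt, and in non-transfected replicate 1, 16 of 22 were. In DENR overexpressing replicate 2 only 27 of 89 were at 1 nt, and in non-transfected replicate 2 only 10 of 33. DENR overexpressing replicate 1 had 8 of 10. The difference thus ran across the groups, and both groups held a library of each kind. Positions within 10 nt made up 2.51% to 4.76% of the members of each DENR library.

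Next to genes for tRNA, the side could be judged only by the strand of the site. RefSeq lists 430 tRNA genes, and 27 positions lay within 10 nt of 17 of them. All 27 were on the 5′ side in the sense of the site's own strand, with 7 at 1 nt, whereas 1 position lay from 11 to 50 nt away on either side. The RefSeq table used gives no strand for these genes, so the strand of the gene itself was not compared. Next to n-TDgtc16, an aspartate tRNA gene, the position 1 nt away (chromosome 10, 91182169, minus strand) was listed in all 5 DENR libraries, with scores of 5, 4 and 5 with overexpression and 2 and 2 without transfection. The position next to n-TEctc9, a glutamate tRNA gene, was in 3 of them, and 24 of the 27 were in a single library. Over genes and tRNA genes together, 126 of 131 positions within 10 nt (96.2%) were on the 5′ side. That count joins unlike measures, since the side was taken by gene strand for 99 and by site strand for the 27 next to tRNA genes.

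The edge at Gm26917, counted above, was also the edge of the excluded pre-rRNA copy, since both begin at the same base. The copy is therefore not a separate example, and the 3 positions next to Gm26917 are among those given here. In the 200 nt before the copy, 11 positions were listed, 2 of them in all 5 DENR libraries. All 11 were on the plus strand and within 19 nt of the edge. Their summed scores were 3, 46 and 16 with overexpression and 3 and 8 without transfection. In the 200 nt after the copy there was none. These 11 belong to the set only because the rule ends the rRNA locus at that base.

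Farther from genes the sides were more even. The median distance to the nearest gene was 10132 nt, 37.8% of positions lay within 5000 nt, and the farthest was 535344 nt away. From 11 to 100 nt, 61 of 146 positions were upstream and 55 downstream on the gene strand, against 30 on the opposite strand in both directions. From there up to 1000 nt, 142 of 384 were upstream on the gene strand and 103 upstream on the opposite strand. From there up to 5000 nt, 302 of 756 (39.9%) were downstream on the gene strand. Few genes made up much of that count, with 64 positions downstream of Gm27679 and 53 downstream of Gm7291. The class from 11 to 100 nt leaned on the miRNA gene Gm25911, with 35 positions from 25 to 104 nt downstream on its strand. They belong to a locus of 73 positions on that strand, which also reaches upstream of the gene. The class was not recounted without this locus, so whether its same-strand excess holds for other genes was not tested. Of the positions from 11 to 5000 nt, the downstream, same-strand share was 32.7%, 36.3% and 36.3% with overexpression and 34.8% and 36.3% without transfection.

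**Figure D2:**
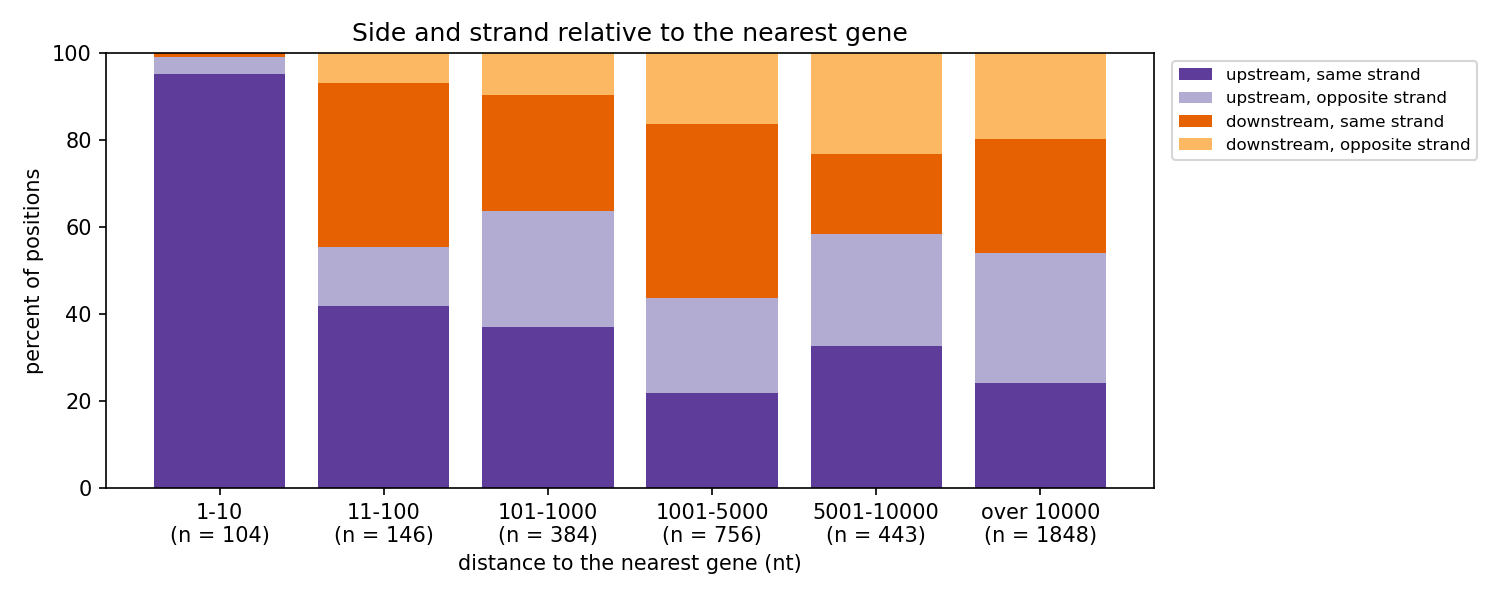
Percent of positions (y axis) upstream or downstream of the nearest gene and on its strand or the opposite one, by distance (x axis, nt), with the number of positions under each bar. Upstream positions on the gene strand make up 95.2% of the nearest class and 24.3% of the farthest.

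Downstream of protein-coding genes, on their strand and within 5000 nt, no gene had positions in all 5 DENR libraries, and Galnt9, Kcnk12 and Sel1l2 had them in 4. Galnt9, a glycosyltransferase gene, had 5 positions from 3469 to 3473 nt downstream, with summed scores of 2, 8 and 24 with overexpression and 0 and 3 without transfection. Ranbp2, a nuclear pore gene, had 15 positions from 604 to 629 nt downstream in 3 libraries (28 and 10 in overexpressing replicates 2 and 3, and 4 in non-transfected replicate 1). In both genes the positions formed 1 narrow cluster. These genes were named after their values were seen.

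Upstream of protein-coding genes, on the opposite strand and within 1000 nt, Wdr75 was the only gene with positions in all 5 DENR libraries. Wdr75 encodes a factor of small ribosomal subunit production. Its 7 positions lay from 44 to 51 nt upstream of the start, on the minus strand, with summed scores of 9, 24 and 23 with overexpression and 7 and 6 without transfection. The 3 overexpressing values were above both non-transfected values, but the scores are not scaled to library size. As shares of the member score they were 1.58%, 0.28% and 0.54% against 0.55% and 0.27%, and the groups overlapped. Pygm, the muscle glycogen phosphorylase gene, had 3 positions on its own strand at -67 to -65 nt from the start in 4 DENR libraries, with scores of 0, 4 and 6 against 2 and 3. Both stretches, from RefSeq promoter windows (GRCm38), are printed 5′ to 3′ on the strand of the sites, with the listed positions in capitals.
Wdr75 upstream, chr1:45795095-45795132, minus strand: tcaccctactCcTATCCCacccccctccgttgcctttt
Pygm upstream, chr19:6384331-6384363, plus strand: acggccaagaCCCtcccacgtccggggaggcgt
RefSeq promoter windows, which run from 250 nt before to 50 nt after a gene start, held 83 of the positions. These were in 43 windows, with windows that shared positions counted once. The windows used did not cover all gene classes, since they held none of the positions next to snRNA, snoRNA or tRNA genes. The base at the position was C at 43.4% of the 83, T at 21.7%, A at 19.3% and G at 15.7%. Over both strands of the same windows C and G each made up 32.1% and A and T each 17.9%. Neighbouring positions are not independent, so no test was made. No genome sequence was used here, so the bases at the other positions were not analysed.

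The name intergenic depends on the annotation. Of the 3681 positions, 548 (14.9%) lay within a RefSeq gene of the same build that GENCODE M21 does not hold there. Of the 548, 314 were in lncRNA genes, 146 in protein-coding genes and 78 in pseudogenes, with a few in more than one class. The lncRNA gene D930030F02Rik held 3 positions with summed scores of 5, 57 and 46 with overexpression and 6 and 31 without transfection. Gm33384 held 4, with 2, 71 and 31 against 7 and 5. The groups overlapped in both. RefSeq strand was not available in the table used.

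The DENR overexpressing libraries held 268, 2626 and 1317 members and the non-transfected libraries 556 and 693. The overexpressing libraries thus lay on both sides of the non-transfected ones. The mean number was 1404 ± 1181 (SD, n = 3) against 624.5 ± 96.9 (SD, n = 2), which is 0.20 higher in log10 units (two-sided exact permutation test over libraries, p = 0.8, adjusted p = 0.8 over 3 tests). With 3 against 2 libraries the smallest possible p is 0.2. Without DENR overexpressing replicate 2 the log10 difference was -0.019. Lists hold only called sites and their depth is unknown, so these numbers do not measure RNA. The replicates are separate samples by label, and nothing states that they came from separate cultures, so p-values cover only the spread between these libraries.

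As a share of nuclear sites outside rRNA loci and dense windows, members made up 39.2%, 29.0% and 29.4% with overexpression and 41.0% and 29.6% without transfection. Each group held a high and a low library. The means were 32.5% ± 5.76 (SD, n = 3) and 35.3% ± 8.01 (SD, n = 2), so that the overexpressing mean minus the non-transfected mean was -2.77 percentage points (two-sided exact permutation test, p = 0.4, adjusted p = 0.8). Without non-transfected replicate 1 the difference was 2.90. The highest shares were in the lists with the fewest sites, 4012 and 4324, and the part of list length was not tested.

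**Figure D3:**
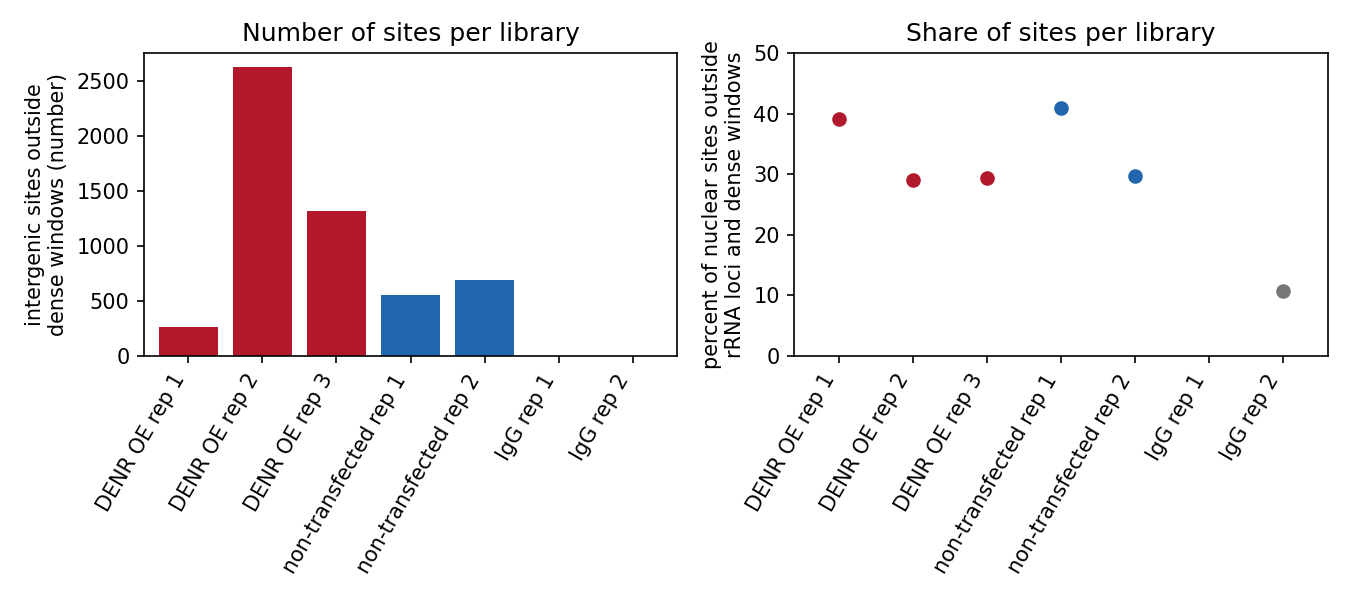
Number of members (left, bars) and percent of nuclear sites outside rRNA loci and dense windows (right, points) in each of the 7 libraries. The overexpressing libraries (red) lie between 268 and 2626 and the non-transfected ones (blue) at 556 and 693, and IgG replicate 1 had no site for the right panel.

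The IgG controls held almost none. IgG replicate 1 listed 0 members among 19 sites (Clopper-Pearson 95% interval 0 to 17.6%) and IgG replicate 2 listed 3 among 234, a share of 1.28% (interval 0.265 to 3.70%). In the DENR lists members were 6.68% to 16.3% of all sites. The intervals cover counting error only, since sites within a list are not independent. All 3 IgG positions had a score of 2. The one on chromosome 1 (193632750, plus strand) was also listed in 3 DENR libraries, with scores of 26 and 8 in overexpressing replicates 2 and 3 and 1 in non-transfected replicate 2. The others were on chromosome 12, at 62587095 (plus strand), listed in 2 DENR libraries, and at 19731224 (minus strand), listed in no DENR library.

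Part of the members recurred between libraries. Of the 3681 positions, 2644 (71.8%) were in 1 DENR library, 570 in 2, 266 in 3, 122 in 4 and 78 (2.12%) in all 5. Intronic positions outside dense windows, which are in a gene but in no exon, numbered 5624, of which 91.2% were in 1 library and 26 (0.46%) in all 5. In pairs of DENR libraries, 54.5% ± 13.5 of the shorter member list was at the same position in the longer (SD, 10 pairs, range 31.3% to 76.1%), against 25.1% ± 6.44 for intronic sites. Pairs share libraries, so these figures are descriptions. The share of members found in another DENR library was 86.2%, 35.9% and 57.4% with overexpression and 74.6% and 68.1% without transfection, the shortest list having the highest and the longest the lowest. The positions in all 5 libraries are limited by the shortest list, DENR overexpressing replicate 1, and without it 139 positions were in all of the other 4.

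**Figure D4:**
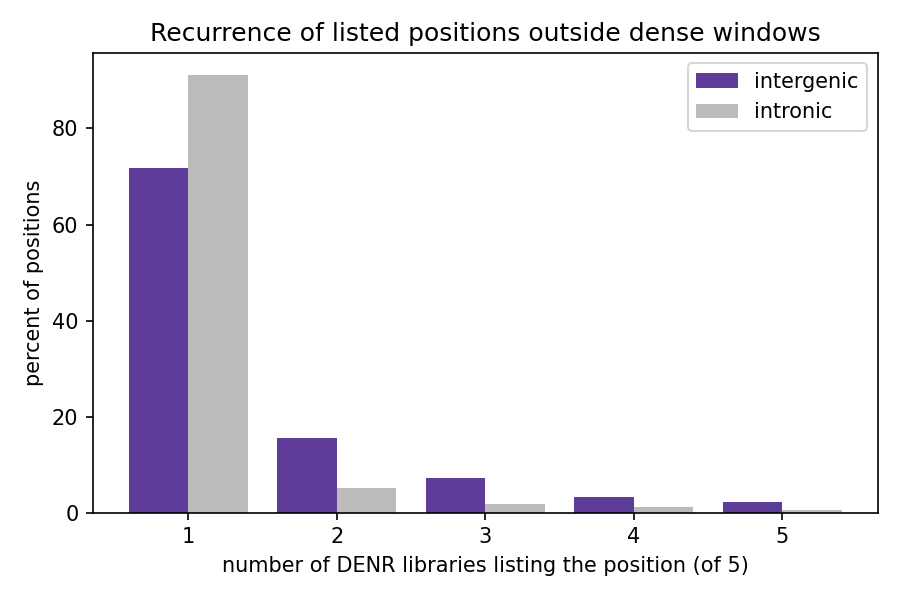
Percent of positions (y axis) by the number of DENR libraries that list them (x axis), for intergenic and intronic positions outside dense windows. Intergenic positions fall from 71.8% in 1 library to 2.12% in 5, and intronic positions from 91.2% to 0.46%.

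Clustering was compared with intronic sites next, by the share with a close neighbour. This share, counting sites that had another of the same list and strand within 15 nt, was 82.5%, 72.9% and 72.1% with overexpression and 70.7% and 75.0% without transfection. The intronic shares of the same libraries were 67.5%, 55.7% and 45.7%, and 59.7% and 58.7%. Members were above intronic sites in 5 of 5 libraries, by 17.2 percentage points on average (74.6% ± 4.65 against 57.5% ± 7.91, SD, n = 5). The two-sided exact sign-flip permutation test over libraries gave p = 0.0625 (adjusted p = 0.0625 over 2 tests), the smallest that 5 libraries allow. Per the methods, the caller itself used a flank of 15 nt. Most track lines name separate regions, so intergenic and intronic sites may not have met the same threshold. Dense windows were left out by local site density, which the neighbour share also reflects. With dense windows defined from 5 sites the difference was 13.0 percentage points. What the rule and the caller contributed to the difference was not tested. Between groups the member share was 75.8% ± 5.76 (SD, n = 3) against 72.9% ± 3.08 (SD, n = 2), 2.97 percentage points apart (two-sided exact permutation test, p = 0.8, adjusted p = 0.8). Without DENR overexpressing replicate 1 that difference was -0.35.

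Scores of members were low, with a median of 1 in DENR overexpressing replicate 1 and 2 in each of the other 4 DENR libraries. The highest score was 53, 296 and 108 with overexpression and 38 and 56 without transfection. A score of 1 was held by 46.5% ± 6.27 of members and 43.1% ± 9.29 of intronic sites (SD, n = 5), with members higher in 5 of 5 libraries by 3.37 percentage points (two-sided exact sign-flip permutation test, p = 0.0625, adjusted p = 0.0625). When positions within 15 nt were merged the difference was -1.09. Members held 2.33% to 7.73% of the summed score of each DENR list.

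Positions on the same strand within 100 nt of each other were joined into 1673 loci, of which 952 were a single position. The loci listed in all 5 DENR libraries numbered 61, with a median width of 15 nt and a median of 8 positions, and 1184 loci were in 1 library. These 61 loci held 55.3% ± 16.8 of the members' score (SD, n = 5), from 40.2% in DENR overexpressing replicate 2 to 83.5% in replicate 1. The 12 with the highest mean share held 30.5% ± 11.1. A few short stretches thus carried much of the score, and most loci were seen once.

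The leading locus was on chromosome 2 (90395155 to 90395195, minus strand), 41 nt wide with 32 positions, and its nearest gene was Olfr1274-ps, in an olfactory receptor family, 3488 nt away on the opposite strand. Its summed scores were 92, 244 and 318 with overexpression and 42 and 154 without transfection, or 16.2%, 2.80% and 7.48% against 3.31% and 7.05% of each library's member score. It ranked first or second in all 5 libraries, and the groups overlapped. One position in it, 90395186, was the highest-scoring member of DENR overexpressing replicates 1 and 3, at 53 and 108, and scored 89, 18 and 48 in overexpressing replicate 2 and non-transfected replicates 1 and 2.

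The second locus, on chromosome 6 (100471554 to 100471571, minus strand), was 18 nt wide and 23110 nt from Gm23234, a snoRNA gene. Its summed scores were 18, 362 and 16, against 45 and 128. It ranked first in DENR overexpressing replicate 2 and non-transfected replicate 1 and second in non-transfected replicate 2. In DENR overexpressing replicates 1 and 3 it ranked 5th and 47th. Its position 100471566 had the highest member score of all, 296 in DENR overexpressing replicate 2, and scored 12 and 5 in the other overexpressing libraries and 38 and 56 in the non-transfected ones. The sixth locus, on chromosome 18 (41196491 to 41196502, plus strand), 145779 nt from the nearest gene, varied in the same manner, with 19, 230 and 10 against 34 and 56, and ranked 80th in DENR overexpressing replicate 3. Summed scores are not scaled to library size. As shares of the member score, the second locus held 3.16%, 4.16% and 0.38% with overexpression, against 3.54% and 5.86%. The sixth held 3.34%, 2.64% and 0.24%, against 2.68% and 2.56%. At both loci DENR overexpressing replicate 3 was thus far below the other libraries.

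The seventh locus was the steadiest of the 12. On chromosome 5 (143154696 to 143154982, minus strand), 2179 nt downstream of the pseudogene Gm7291, it held 53 positions and 2.11%, 2.02% and 2.12% of the member score with overexpression and 1.65% and 1.79% without transfection. All 3 overexpressing shares were above both non-transfected ones. No other of the 12 loci had this order, the libraries allow only 10 relabellings, and the order was not tested.

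The tenth locus, on chromosome 1 (167340265 to 167340548, minus strand), surrounded the annotated miRNA gene Gm25911 (167340369 to 167340424) and had the most positions of the 12, with 73 over 284 nt, but none in all 5 libraries. Its summed scores were 15, 89 and 72 against 19 and 9. The gene itself, outside the set, held 10 positions on the same strand, with summed scores of 0, 82 and 91 against 1 and 0. The remaining 7 loci held from 1.23% to 3.11% of the member score on average. In order, their nearest genes were AC144861.1, Camsap2, Rbm6-ps2, Gm14875, Gm27679, Gm22195 and Gm19277, at distances from 1153 to 21614 nt. None of the 12 lay in a RefSeq gene or had an IgG site. The loci near AC144861.1, Camsap2, Gm7291 and Gm27679 were in the 4 windows just inside the limit for dense windows, and for 10 of the 12 the window held 5 sites or more even in the DENR library with the fewest.

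**Figure D5:**
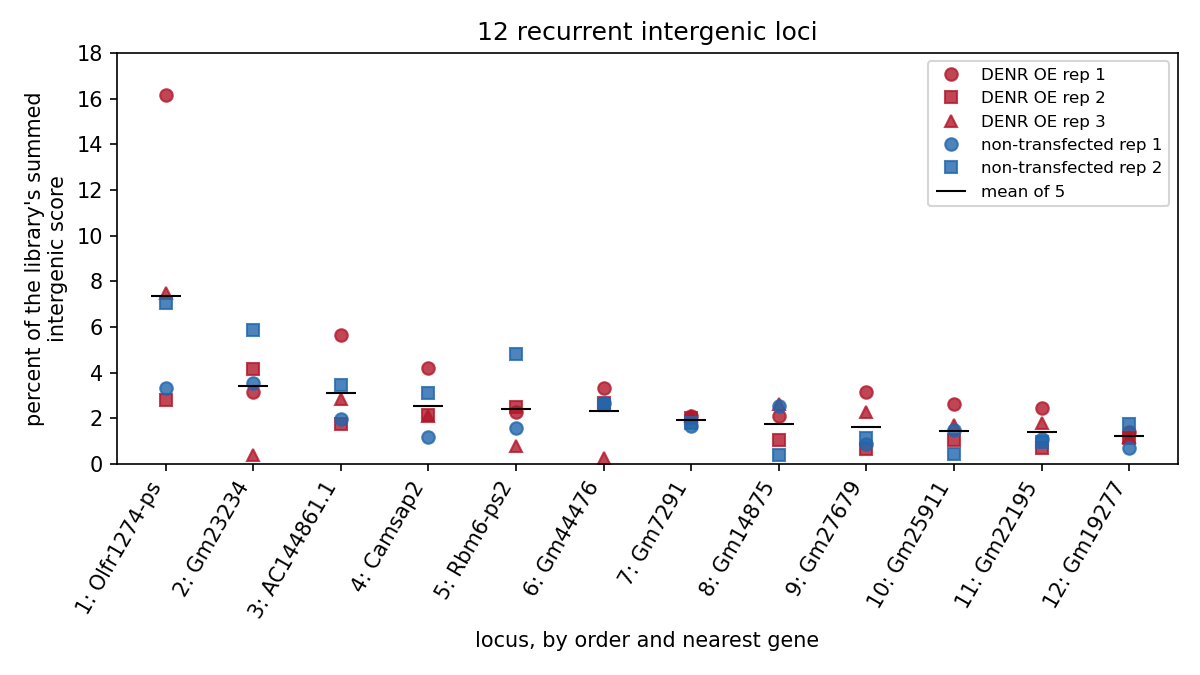
Percent of each DENR library's summed member score (y axis) at the 12 loci named by recurrence and score (x axis, nearest gene), with a point per library and a bar for the mean of 5. The Olfr1274-ps locus ranges from 2.80% to 16.2% and the Gm7291 locus from 1.65% to 2.12%.

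Members were spread over all chromosomes except the mitochondrial one, with 381 positions on chromosome 1, 295 on chromosome 5, 254 on X and 12 on Y. They were near even by strand, with 1780 positions on plus and 1901 on minus. Markers of the labelled cell type were also looked up. All 8 fibroblast marker genes examined (Col1a1, Col1a2, Col3a1, Fn1, Vim, Sparc, Thy1 and S100a4) had exonic sites in at least 1 DENR library. The 6 markers of other cells (Ptprc, Epcam, Alb, Pecam1, Krt5 and Tubb3) had none in any. Vim, Thy1 and S100a4 each had them in only 1 overexpressing library. Col3a1, Vim, Sparc, Thy1 and S100a4 had none in either non-transfected library, and non-transfected replicate 1 had them only in Fn1. The share of all genes with exonic sites was not computed, so these counts do not test the cell type. Site lists do not measure expression.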

How the data were processed

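Per the labels, iCLIP libraries were made from NIH3T3 cells. Per the methods, the authors removed sample barcodes, aligned reads to mm10 with Bowtie (the submitters' processing notes name Bowtie2), collapsed reads sharing a molecular identifier and start, and called sites with iCount. The deposited score is a signed whole number per site. Track lines of 6 of the 7 lists name 100 permutations, a 15-nt neighbourhood, an FDR of 0.05 and separate regions, whereas the methods name regions as one. Treatment of reads matching several places was not given in the sources used here. Only called sites are listed, so depth is unknown and unlisted positions are not zeros.

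Sites were annotated with GENCODE M21 (55450 genes), and rRNA genes were counted apart. Libraries were compared by exact permutation tests, and 4 planned measures that need a genome were not run. Members, lists and tests were chosen with earlier results of these data known. The named loci were the 12 in most DENR libraries, ties broken by mean share of member score; tRNA, promoter and downstream genes were named after their values were seen. Alternatives covered libraries, score, merging, windows and gene distance. Functions were tested on simulated data. Python 3.11.15, numpy, pandas and scipy were used.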

Additional observations from a re-analysis of the deposited data

How the results depend on the processing

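The 3 group comparisons could not pass 0.05 under any setting, and leaving out a library turned each of them. Leaving out 1 library gave differences of -0.019 to 0.48 for the log10 number of members, -8.43 to 2.90 percentage points for their share of nuclear sites and -0.35 to 5.14 for the share with a neighbour. Their values with the replicate block (replicates 1 and 2 paired) were 0.13, -1.19 and 4.81. Same-numbered libraries did not deviate together over 488 loci (correlations of -0.07 and -0.07), and the numbers were treated as names only. The neighbour difference between members and intronic sites stayed positive throughout, from 13.0 to 23.3 percentage points with all 5 libraries and from 14.8 to 18.7 without 1 of them. The score-of-1 difference became -1.09 after merging positions within 15 nt and was 1.47 to 4.05 without 1 library. The count of 78 positions in all 5 libraries was 443 and 574 when positions within 5 and 15 nt counted as shared, 43 with a minimum score of 2, 48 with dense windows defined from 5 sites, and 80 to 139 for the other 4 libraries when 1 was left out. The share of positions within 10 nt of a gene that were upstream on its strand was 82.8% of 29 without snRNA genes, and 93.3% to 96.1% without 1 library. The last result, its alternatives, the IgG alternatives and the recurrence in 4 libraries were added after seeing the data. Of 76 alternatives, 4 reversed a difference and 6 moved a value that has no test; differences that kept their direction still varied in size, as the ranges show. The base at the position, soft-masked sequence, copies of the downstream sequence and sequence families were not run.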
